A study of Mus musculus with 8 samples.

Results

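The actin family of the mouse has 6 genes, and all 6 were measured in whole hearts of WT mice and of mice without SRC-2, 4 of each. They are Actc1, Acta1, Acta2, Actg2, Actb and Actg1. Every probeset of the array that the annotation assigns to 1 of these genes alone was taken, which gave 9 of the 45101 probesets, and array controls were set aside. Each gene was read by its brightest probeset over the 8 arrays, so that the family is 6 of 18193 genes. The choice did not use the difference between genotypes. RNA came from the whole heart of male mice of the mixed strain C57B/6Jx129Sv, fed ad lib and 10 to 12 weeks old by the labels, and each heart had its own Affymetrix Mouse 430 2.0 array. The WT group is wild type, the SRC-2 KO group lacks the steroid receptor coactivator SRC-2 (gene Ncoa2) in the germline, and both groups were unstressed. Loss in the germline removes SRC-2 from every cell of the body and through development, so the groups do not isolate the heart muscle cell.

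Actins are among the most conserved proteins of animals. The family holds sarcomeric actins, which build the thin filaments of striated muscle, smooth muscle actins, which serve contraction of vessels and hollow organs, and cytoplasmic actins, which form the cytoskeleton of all cells. In the heart, cardiac α-actin (Actc1) is the adult sarcomeric form, skeletal α-actin (Acta1) is its close relative that also marks fetal heart muscle and hypertrophy, and smooth muscle α-actin (Acta2) is found in vascular smooth muscle, in early heart muscle and in activated fibroblasts. Many muscle actin genes are driven by serum response factor (SRF), which binds a short DNA element called the CArG box and works with coactivators that sense the pool of free actin.

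The promoters of 4 actin genes are shown because the contrasted genes, Actc1, Acta1 and Acta2, differ in how closely their CArG boxes follow the consensus. Each line gives the 250 bases before the annotated start on build GRCm38.p6 of RefSeq, 5′ to 3′ on the minus strand of the chromosome, on which all 4 genes lie. Capitals mark CArG boxes, either exact or with 1 G or C among the 6 central bases. The windows are chr2:114052876-114053125 for Actc1, chr8:123894776-123895025 for Acta1, chr19:34255374-34255623 for Acta2 and chr11:120348496-120348745 for Actg1.
Actc1: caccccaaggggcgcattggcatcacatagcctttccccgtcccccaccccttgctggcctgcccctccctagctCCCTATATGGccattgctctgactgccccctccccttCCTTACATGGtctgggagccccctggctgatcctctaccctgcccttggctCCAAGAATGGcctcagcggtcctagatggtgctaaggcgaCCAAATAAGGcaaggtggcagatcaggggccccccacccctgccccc
Acta1: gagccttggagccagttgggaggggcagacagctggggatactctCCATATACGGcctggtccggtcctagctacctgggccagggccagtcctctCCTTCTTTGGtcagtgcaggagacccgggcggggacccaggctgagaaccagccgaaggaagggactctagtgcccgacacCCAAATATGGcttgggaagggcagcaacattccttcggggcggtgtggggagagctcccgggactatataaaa
Acta2: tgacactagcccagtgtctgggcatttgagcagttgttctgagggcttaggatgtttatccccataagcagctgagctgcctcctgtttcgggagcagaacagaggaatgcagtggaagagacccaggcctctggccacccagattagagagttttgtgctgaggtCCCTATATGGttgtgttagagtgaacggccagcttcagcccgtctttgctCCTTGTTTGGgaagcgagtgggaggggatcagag
Actg1: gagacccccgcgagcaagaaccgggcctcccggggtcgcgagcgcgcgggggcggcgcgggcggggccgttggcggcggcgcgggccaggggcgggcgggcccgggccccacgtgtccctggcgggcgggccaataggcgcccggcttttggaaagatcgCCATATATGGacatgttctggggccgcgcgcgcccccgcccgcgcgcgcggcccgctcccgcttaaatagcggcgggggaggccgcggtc
An exact CArG box, whose pattern is the same on both strands, began 47 bases before the start in Actc1 (CCAAATAAGG), 73 in Acta1 (CCAAATATGG) and 90 in Actg1 (CCATATATGG). The Acta2 window held no exact box in these letters and 2 boxes with 1 G or C in the centre, CCCTATATGG from 84 bases and CCTTGTTTGG from 34 bases before the start. Boxes of the second kind were found too in Actc1 (3 boxes) and Acta1 (2 boxes). Of 32851 promoter windows of this length, 482 (1.47%) held an exact box and 2823 (8.59%) held a box with at most 1 such substitution. CATTCC, the core of the element bound by TEAD factors, lay 46 bases before the start in Acta1 and, on the other strand, 146 bases before it in Acta2, and 4153 (12.6%) of all windows held it on either strand. The Acta2 window overlaps the span of its own gene in the table, which gives the gene at chr19:34240336-34255585, so another annotated start lies before it. The other actin genes lie at chr6:83512909-83536251 (Actg2) and chr5:142903115-142907976 (Actb), and the transcribed spans of the other 3 genes are chr2:114047282-114052875 (Actc1), chr8:123891758-123894775 (Acta1) and chr11:120345687-120348495 (Actg1). A match of letters is a description, and binding was not measured in these hearts.

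Values are signals, the brightness of a probeset on a linear scale after each array was scaled to the same trimmed mean, and differences are given on the log2 scale. Where genes are counted by a higher or lower mean, it is the mean of log2 signals. Genotypes were compared in limma, and p-values were adjusted by Benjamini-Hochberg over all 18193 genes. The common-variance fit, which draws the spread of each gene toward 1 value, was the main fit, and the trended fit draws it toward the spread of genes with like signal. The trended fit was an alternative that became a result of its own after the values were seen. A gene was called at an adjusted p under 0.05. Single values were compared by an exact two-sided permutation test over the 8 hearts, whose smallest possible p is 0.0286. Signals of different probesets have different brightness per molecule, so no level of 1 gene is set against that of another. The median signal of an array lay between 75.6 and 87.3, and precision is limited by how few arrays there are. Ncoa2, the targeted gene, read from 1660 to 2134 in WT hearts and from 235 to 267 in KO hearts (log2 fold change −2.95, limma adjusted p = 5.89e-04), so each heart had the level of its label. Array KO replicate 4 correlated as well with the WT arrays (mean r 0.976) as with the other KO arrays (0.974), so values without it are given beside the results that it moves most.

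Of the 6 actin genes, Acta2 was the only gene whose KO hearts all lay above its WT hearts, and Acta1 had the largest difference, in the opposite direction, with a wide spread among KO hearts. The common-variance fit called none of the 6, in a background of 0.022% of all genes called. The trended fit called 1, Acta2, which was higher in KO hearts, against 0.379% of all genes called in either direction, 0.121% higher and 0.258% lower. At an unadjusted p under 0.05, the common-variance fit held 10.1% and the trended fit 12.6% of all genes, and Acta1 and Acta2 were the actin genes among them in both. In RNA of a whole heart, fewer cells of a type and less RNA per cell cannot be told apart, for any of these genes.

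**Figure D1:**
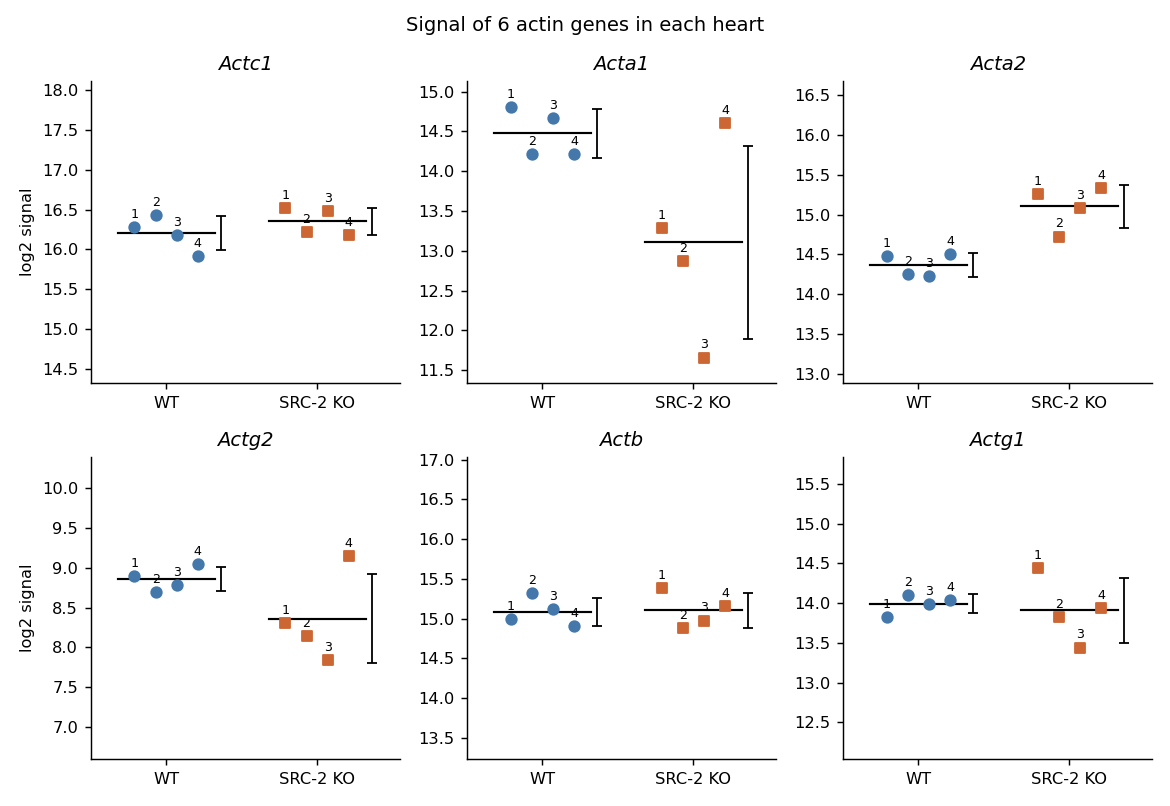
Log2 signal of the brightest probeset of each actin gene in every heart (vertical axis, equal span in all panels, different starting values), with WT hearts as blue circles and SRC-2 KO hearts as orange squares, numbered by replicate. The horizontal line is the mean and the bracket is 1 SD on either side of it (n = 4). The KO squares of Acta2 lie above all WT circles, and those of Acta1 spread from 11.7 to 14.6.

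Actc1, cardiac α-actin, is the main actin of the thin filament. Its signal was 79998, 88503, 74299 and 61849 in WT replicates 1 to 4 and 93867, 76351, 91673 and 74602 in KO replicates 1 to 4. The groups overlapped, and the lowest heart was WT replicate 4. The means were 76162 ± 11186 and 84123 ± 10050 (SD, n = 4 each) for WT and KO, and the log2 fold change was 0.15 (standard error 0.15, limma adjusted p = 0.758, and 0.730 in the trended fit). The 95% interval of −0.21 to 0.50 leaves room for a difference of either sign.

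Acta1, skeletal α-actin, had the largest log2 difference of the family and the widest spread. Its signal was 28751, 18974, 26134 and 19083 in WT replicates 1 to 4 and 9960, 7521, 3230 and 24883 in KO replicates 1 to 4. KO replicates 1 to 3 lay below every WT heart and KO replicate 4 lay within the WT range. The WT mean was 23236 ± 4974 and the KO mean 11399 ± 9410 (SD, n = 4 each), and the log2 fold change was −1.37 (standard error 0.57, 95% interval −2.72 to −0.03). The difference did not pass in limma (adjusted p = 0.490, and 0.203 in the trended fit) or in the permutation test (exact p = 0.0857). Among KO hearts the highest signal was 7.70 times the lowest, against 1.52 times among WT hearts, and the SD of log2 values was 1.21 in KO and 0.31 in WT hearts. Without KO replicate 4 the log2 fold change was −1.87, and the gene passed in the trended fit of limma (adjusted p = 0.0118) and not in the common-variance fit (adjusted p = 0.222). That heart was the only KO heart within the WT range, so leaving it out separates the groups by construction. Leaving out a heart in turn gave values from −1.87 to −0.89, the last without KO replicate 3, the heart with the lowest signal.

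Acta2, smooth muscle α-actin, was higher in KO hearts. Its signal was 22846, 19454, 19127 and 23289 in WT replicates 1 to 4 and 39204, 27061, 34826 and 41324 in KO replicates 1 to 4. Every KO heart lay above every WT heart, and KO replicate 2 lay nearest to them. The KO mean of 35604 ± 6305 stood against a WT mean of 21179 ± 2192 (SD, n = 4 each), which on the log2 scale was a difference of 0.74, or 1.67-fold (standard error 0.16, 95% interval 0.35 to 1.12). The exact permutation p was 0.0286, the smallest that 4 against 4 hearts can give, and 3.1% of all genes had 4 KO hearts above 4 WT hearts. Acta2 passed in the trended fit of limma (adjusted p = 0.0422, place 59 of all genes by p) and not in the common-variance fit (adjusted p = 0.316). With hearts left out in turn, the trended call held without KO replicate 2 (adjusted p = 0.0200) or KO replicate 4 (adjusted p = 0.0368) and was lost in the other 6 fits, with adjusted p up to 0.145. Over all of these fits the log2 fold changes were 0.66 to 0.86, and both ends came from the fits that kept the call. The separation of the KO from the WT hearts was the same after median centring of the arrays and after quantile normalization.

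A second Acta2 probeset read the same direction. Its signal was 187, 174, 156 and 253 in WT replicates 1 to 4 and 415, 311, 341 and 414 in KO replicates 1 to 4. Again no KO heart overlapped a WT heart. The means were 192 ± 41.9 and 370 ± 52.7 (SD, n = 4 each), a log2 fold change of 0.96 (standard error 0.20, exact permutation p = 0.0286), and in limma fits over all probesets it did not pass (adjusted p = 0.462, and 0.0816 in the trended fit). The remaining Acta2 probeset was dim, at 3.32 to 50.3 in WT hearts and 16.7 to 31.5 in KO hearts, and its log2 fold change of 0.64 had a standard error of 0.84 (exact permutation p = 0.486). When the 3 probesets were averaged, the log2 fold change was 0.78 and the trended fit of limma gave an adjusted p of 0.264. The brightest probeset of Acta2, like that of Actg1, has the suffix that Affymetrix gives to probesets shared by several transcripts. Its probe sequences were not analysed here, so signal from a related actin cannot be told apart from Acta2 in it, whereas the second probeset has no such suffix.

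**Figure D2:**
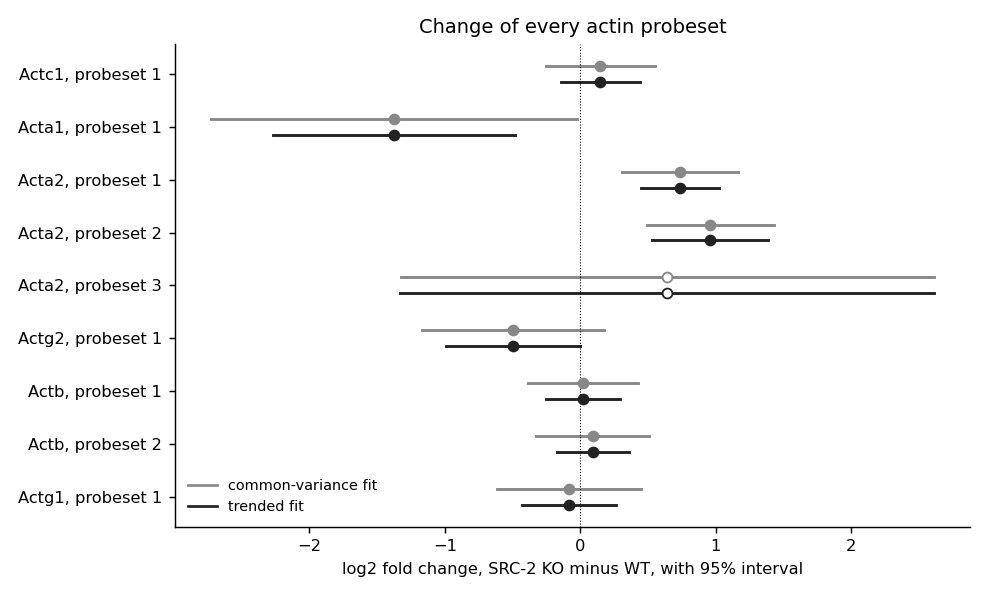
Log2 fold change of each of the 9 actin probesets, SRC-2 KO minus WT (horizontal axis), with 95% intervals from limma fits over all probesets, grey for the common-variance fit and black for the trended fit. Probesets of a gene are numbered by falling mean signal, and the open symbol marks the dim probeset of Acta2. The first 2 Acta2 probesets lie at 0.74 and 0.96 and their intervals do not reach 0.

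Actg2, smooth muscle γ-actin of gut and other hollow organs, had a lower mean in KO hearts, the opposite direction to Acta2. Its signal was 476, 415, 441 and 532 in WT replicates 1 to 4 and 316, 283, 229 and 570 in KO replicates 1 to 4. KO replicates 1 to 3 lay below every WT heart and KO replicate 4 above them all. The log2 fold change was −0.50 (standard error 0.28, 95% interval −1.15 to 0.15, limma adjusted p = 0.584, and 0.423 in the trended fit, exact permutation p = 0.143). It was −0.76 without KO replicate 4 (limma adjusted p = 0.219, and 0.0556 in the trended fit) and −0.32 without KO replicate 3. The order of the KO hearts was that of Acta1, with replicate 3 lowest and replicate 4 highest. Over the 8 hearts with genotype means removed, Acta1 and Actg2 correlated with Pearson's r of 0.90 (permutation p = 0.0573, adjusted p = 0.503 over 15 pairs of actin genes) and Spearman's rho of 0.69 (permutation p = 0.0903, adjusted p = 0.604). The r was 0.13 without the 2 hearts farthest from the median of Acta1, so the relation rests on those hearts. No other pair of actin genes passed the adjustment either.

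The cytoplasmic actins showed no difference beyond their spread. Actb, β-actin, had signals of 32603, 40867, 35532 and 30722 in WT replicates 1 to 4 and 42809, 30311, 32248 and 36699 in KO replicates 1 to 4. The groups overlapped throughout. The means were 34931 ± 4425 for WT and 35517 ± 5549 for KO (SD, n = 4 each), and the log2 fold change was 0.02 (standard error 0.15, 95% interval −0.34 to 0.38, limma adjusted p = 0.973) whose sign turned to −0.11 after quantile normalization. A second Actb probeset gave 0.09 (standard error 0.18, exact permutation p = 0.486). Control probesets of the array that read β-actin near the 3′ end, in the middle and near the 5′ end gave log2 fold changes of 0.08, 0.04 and −0.01. Their 3′ minus 5′ difference, a measure of RNA integrity, was 1.34 ± 0.03 for WT and 1.43 ± 0.07 for KO (SD, n = 4 each) on the log2 scale (exact permutation p = 0.114). That of the Gapdh controls went the other way, −0.05 ± 0.06 for WT and −0.10 ± 0.04 for KO (SD, n = 4 each, exact permutation p = 0.171).

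Actg1, cytoplasmic γ-actin, had signals of 14519, 17649, 16280 and 16900 in WT replicates 1 to 4 and 22225, 14458, 11125 and 15632 in KO replicates 1 to 4. The highest and the lowest heart were both KO. The log2 fold change was −0.08 (standard error 0.21, 95% interval −0.58 to 0.41, limma adjusted p = 0.906, and 0.877 in the trended fit), and it was 0.07 after median centring. The highest KO signal was 2.00 times the lowest, against 1.22 times among WT hearts.

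The contrast of the muscle actins was then read within each heart, as the difference of 2 log2 signals, which does not depend on the scaling factor of an array. The value itself depends on the probes, and its difference between genotypes is the measurement. Acta2 minus Actc1 was −1.81, −2.19, −1.96 and −1.41 in WT replicates 1 to 4 and −1.26, −1.50, −1.40 and −0.85 in KO replicates 1 to 4. KO hearts were higher except that KO replicate 2 lay below WT replicate 4. The difference of means was 0.59 (standard error 0.22, 95% interval 0.06 to 1.12, exact permutation p = 0.0571, adjusted p = 0.0857 over 3 pairs). Acta1 minus Actc1 was −1.48, −2.22, −1.51 and −1.70 in WT replicates 1 to 4 and −3.24, −3.34, −4.83 and −1.58 in KO replicates 1 to 4. KO replicate 4 was again within the WT range, and the difference of −1.52 had a 95% interval of −3.20 to 0.15 (exact permutation p = 0.0857, adjusted p = 0.0857).

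Acta2 minus Acta1 separated the genotypes. It was −0.33, 0.04, −0.45 and 0.29 in WT replicates 1 to 4 and 1.98, 1.85, 3.43 and 0.73 in KO replicates 1 to 4. All KO hearts lay above all WT hearts, KO replicate 4 included. The difference of means was 2.11 on the log2 scale (standard error 0.58, 95% interval 0.69 to 3.53). Its exact permutation p of 0.0286 was the smallest possible and became 0.0857 after adjustment over the 3 pairs, so none of the pairs passed with all 8 hearts. Without KO replicate 4, Acta2 minus Acta1 differed by 2.53 and Acta1 minus Actc1 by −2.08 (exact permutation, adjusted p = 0.0429 for both), and Acta2 minus Actc1 did not pass. That heart was the only KO heart within the WT range of Acta1 minus Actc1, so leaving it out fixed the separation in advance. The unadjusted p of Acta2 minus Acta1 stayed at 0.0286. These 2 passes are therefore no separate evidence.

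**Figure D3:**
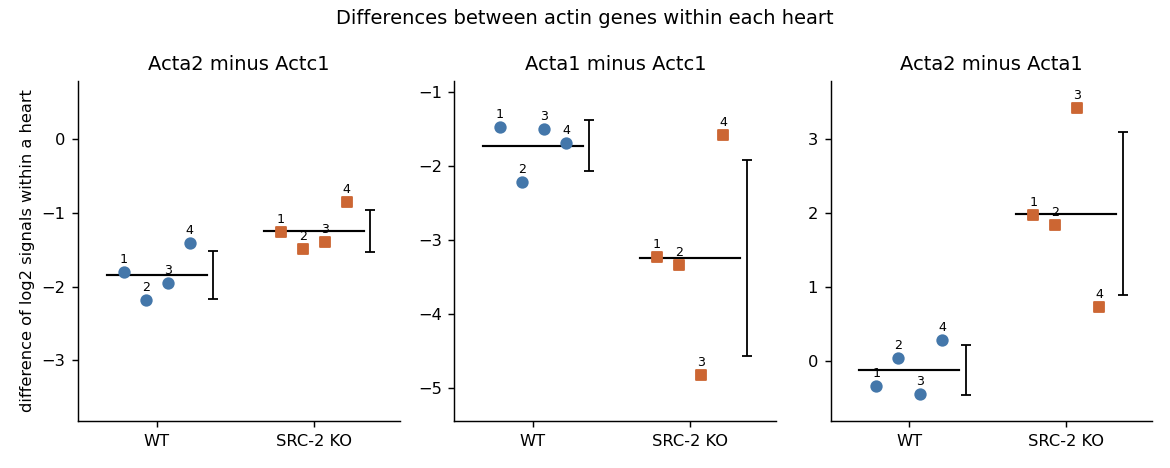
Difference of the log2 signals of a pair of actin genes within each heart (vertical axis), with WT as blue circles and SRC-2 KO as orange squares, numbered by replicate, and the mean with 1 SD on either side (n = 4). Acta2 minus Acta1 runs from −0.45 to 0.29 in WT and from 0.73 to 3.43 in KO hearts, and the other pairs overlap.

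Smooth muscle genes were examined next, since Acta2 is best known from vascular smooth muscle. Of 16 contractile and cytoskeletal genes of smooth muscle, the KO mean was higher in 6 and lower in 10 (8 and 8 after median centring of the arrays), where 53% of all genes had lower means. Their median difference was −0.20 on the log2 scale against −0.03 over all genes, and neither fit called any. After median centring, 11624 of all 18193 genes had higher and 6569 lower means, so the centred counts of every list are to be read against that shift. Desmin (Des), the intermediate filament of muscle that heart muscle cells also make, was 10043 to 14851 in WT hearts and 14981 to 17317 in KO hearts, the only gene of the list without overlap (log2 fold change 0.35, limma adjusted p = 0.478). Of all genes, 3.1% had 4 KO hearts above 4 WT hearts. Tpm2, β-tropomyosin, was 2805, 3380, 3518 and 2900 in WT replicates 1 to 4 and 1558, 1666, 851 and 3927 in KO replicates 1 to 4 (log2 fold change −0.87, limma adjusted p = 0.540). Among KO hearts it was lowest in replicate 3 and highest in replicate 4, as were Acta1 and Actg2. Csrp1, a LIM protein of smooth muscle, gave −0.28 (limma adjusted p = 0.525) and Myl9, the regulatory myosin light chain, −0.53 (limma adjusted p = 0.547).

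Markers of smooth muscle cells gave no such separation as Acta2. Of 8 markers, 1 had a higher and 7 a lower KO mean of log2 signals (median −0.40 on the log2 scale, and 3 and 5 after median centring), neither fit called any, and their summed signal was 9796 to 10974 in WT hearts and 5157 to 11327 in KO hearts. One of them, Lmod1, had a mean signal under 50. On the signal scale, the KO means of Tagln (1141 against 1105 in WT) and Lmod1 (38.1 against 37.4) were slightly higher, unlike their means of log2 signals. Myh11, smooth muscle myosin and the defining marker, was 274, 519, 449 and 467 in WT replicates 1 to 4 and 180, 344, 137 and 661 in KO replicates 1 to 4. Tagln, transgelin, was 589, 1311, 1222 and 1299 in WT and 684, 1178, 499 and 2203 in KO replicates 1 to 4. In both genes KO replicate 4 was the highest heart and KO replicate 3 the lowest. Acta2 minus the mean log2 signal of the 8 markers, a measure chosen after the values were seen, was 5.37 ± 0.46 for WT and 6.51 ± 0.95 for KO (SD, n = 4 each) (difference 1.15, exact permutation p = 0.0857). Without KO replicate 4, the Acta2 difference was 0.66, and all 8 markers had lower means in KO hearts (median −0.69).

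**Figure D4:**
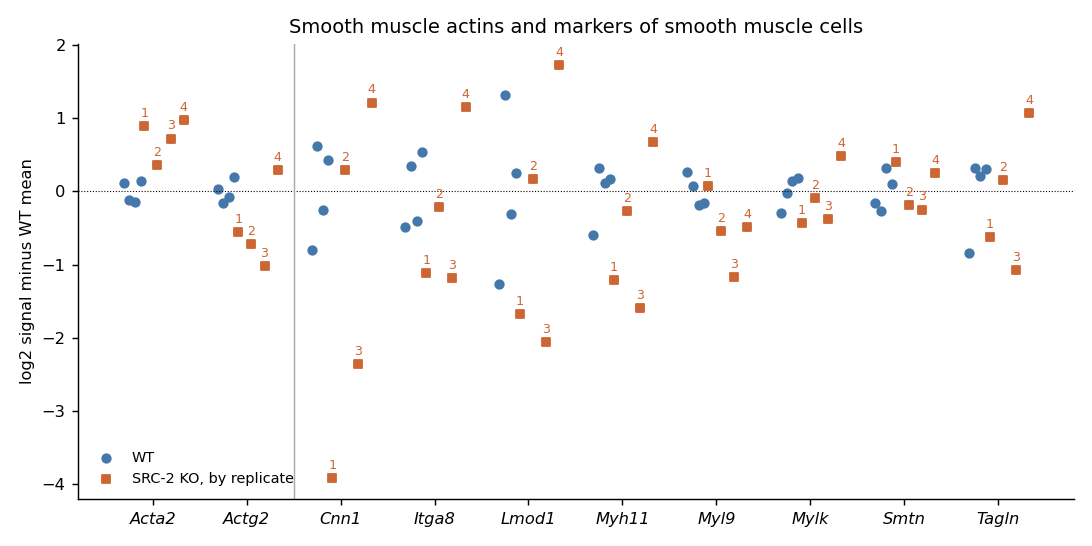
Log2 signal minus the WT mean of the gene (vertical axis) for the smooth muscle actins Acta2 and Actg2, left of the grey line, and the 8 markers of smooth muscle cells, right of it. WT hearts are blue circles and SRC-2 KO hearts orange squares with their replicate number. All KO squares of Acta2 lie above its WT circles, while KO replicates 1 and 3 of Cnn1, Itga8, Myh11 and Lmod1 lie below the WT circles of those genes and KO replicate 4 lies above them.

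Other cells of the heart were read from their markers. None of the marker lists of pericytes (5 of 6 lower), fibroblasts (9 of 9 lower, median −0.67), endothelial cells (7 of 7 lower, median −0.27) or macrophages (7 of 7 lower, median −0.32) had a member called in either fit. After median centring, the lower members numbered 2, 8, 5 and 6 in that order, where 6569 of all 18193 genes had lower means. Col3a1, a fibrillar collagen of fibroblasts, was 25648 to 43853 in WT hearts and 10567 to 24580 in KO hearts (log2 fold change −0.95, limma adjusted p = 0.402). Acta2 and the fibroblast markers thus had opposite signs in these hearts. Their part in the Acta2 result was not tested.

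Atrial markers had the largest median difference of the cell types read with all 8 hearts, whereas without KO replicate 4 that of the blood markers was larger (1.72 against −1.36). Of 10 markers, 9 had lower means in KO hearts (median −1.40), 5 lay lower in every KO heart than in any WT heart, as did 3.72% of all genes, and their summed signal was 161710 to 267343 in WT hearts and 20179 to 201039 in KO hearts. Stard10, Tbx5 and Nr2f2 were called lower in the trended fit of limma (adjusted p = 0.0188, 0.0367 and 0.0367), where 0.258% of all genes were called lower, and none in the common-variance fit. As a mean of log2 signals, the markers stood at 12.0, 12.5, 12.4 and 11.9 in WT replicates 1 to 4 and at 12.0, 10.8, 9.42 and 10.6 in KO replicates 1 to 4. KO replicate 3, which had the lowest Acta1, Actg2 and Actg1, was also lowest here. Of 54 relations of an actin gene with a marker list over the 8 hearts, genotype means removed, Actg1 with the atrial markers gave the highest r, 0.94 (permutation p = 0.0573, adjusted p = 0.578, rho 0.69 with permutation p = 0.101 and adjusted p = 0.777), which was 0.35 without the 2 farthest hearts. With the same markers, r was 0.46 for Acta1 (permutation p = 0.502) and 0.19 for Actg2 (permutation p = 0.799). The smallest permutation p was that of Acta2 with the skeletal muscle markers described next. Their r was 0.87 (permutation p = 0.0122, adjusted p = 0.438) and rho 0.83 (permutation p = 0.0174, adjusted p = 0.525). That r was 0.70 without the 2 hearts farthest from the median of Acta2. None of the 54 passed the adjustment, and the share of atrial tissue in the actin values was not tested.

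Markers of skeletal muscle, in which Acta1 is the main actin, were near background for 5 of 10 genes (mean signal under 50), including the fast myosins Myh1 and Myh4. Of the 10, 4 had higher and 6 lower means in KO hearts (median −0.64, and −0.16 without KO replicate 4), and Tnni2 was the only one called in either fit. Tnni2, fast skeletal troponin I, was 725, 755, 317 and 605 in WT and 204, 58.4, 162 and 163 in KO replicates 1 to 4, lower in every KO heart (log2 fold change −2.10, called in the trended fit of limma with adjusted p = 0.0367, and not in the common-variance fit, adjusted p = 0.310). Of all genes, 3.72% had 4 KO hearts below 4 WT hearts. The markers differed in KO replicate 4, whose Acta1 signal was within the WT range. It lay below all WT hearts in Tnni2 and in Mybpc2 (848 against 867 to 1245). It lay within the WT range in Atp2a1 (120 against 91.1 to 148) and Mylpf (159 against 77.0 to 227), and above all WT hearts in the dim Myh2 (109 against 14.2 to 87.8). The share of skeletal muscle in the Acta1 values was not tested. Blood markers had higher means in KO hearts in 4 of 4 genes (median 0.995), none called, and in 3 of 4 (median 1.72) without KO replicate 4, with S100a9 at 11.5 to 56.1 in WT hearts and 26.5 to 1137 in KO hearts. Hba-a1 was near background, and its mean signal was lower in KO hearts (9.90 against 13.4 in WT).

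The partners of cardiac actin in the sarcomere lay close to it. Of 10 genes of the thin and thick filament and the Z disc, 9 had higher means in KO hearts (median 0.20), none called, and after quantile normalization 4 were higher, 4 lower and 2 equal. Quantile normalization gives equal ranks the same value on every array. It therefore limits differences at the top of the signal range, where most of these genes lie. Tpm1, the tropomyosin wound along the thin filament, gave a log2 fold change of 0.27, Tnnc1, the calcium-binding troponin C, 0.25, Tnnt2, cardiac troponin T, 0.21 and Myh6, α-myosin heavy chain, 0.21 (limma adjusted p of 0.603 to 0.664). None of these differences, nor that of Actc1, passed the test, and the genotypes overlapped in each of these genes. All 7 genes listed for ventricular muscle cells, 4 of which are among these partners too, had higher means in KO hearts (median 0.19), and 5 did after quantile normalization. That list includes general heart muscle genes such as Myh6, so it does not tell ventricle from atrium.

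SRF and its partners were measured by 13 of 14 listed genes, of which 6 had higher and 7 lower means (median −0.09, and 8 and 5 after median centring), none called. With that centring, 11624 of all 18193 genes had higher means. Srf itself was 821 to 1046 in WT hearts and 850 to 1212 in KO hearts, and Myocd, the coactivator of SRF in heart and smooth muscle, 1758 to 2725 and 2082 to 2600, both named after their values were seen. Fhl2, a LIM protein of heart muscle that binds SRF, was 42504 to 51319 in WT hearts and 55711 to 68597 in KO hearts, without overlap (log2 fold change 0.44, limma adjusted p = 0.365, and 0.130 in the trended fit). Such a separation, with KO above WT, was found in 3.1% of all genes. Elk3, a factor that competes for SRF, gave −0.36 and Mrtfb, a coactivator that senses free actin, −0.25. Abra, a protein that binds actin and activates SRF signalling, was 7039 in KO replicate 1 against 806 to 1361 in the other hearts, the same heart that had the highest Actg1.

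Genes that handle actin monomers and filaments were grouped by role. Of 15 genes of monomer binding and turnover, 6 had higher and 9 lower means (11 and 4 after median centring, where 11624 of all 18193 genes had higher means), none called. Twf2, a twinfilin that holds actin monomers and caps filaments, was 6886 to 9779 in WT hearts and 5625 to 6258 in KO hearts (log2 fold change −0.47, limma adjusted p = 0.388, and 0.0855 in the trended fit). Tmsb10, a thymosin that holds monomers, was 11633 to 15218 in WT hearts and 5688 to 11247 in KO hearts (log2 fold change −0.74, limma adjusted p = 0.402, and 0.0945 in the trended fit). Both had no overlap, and 3.72% of all genes had 4 KO hearts below 4 WT hearts. Lasp1 (−0.47) and Coro1b (−0.30) overlapped, and Cfl1, Cfl2, Pfn1 and Pfn2, the cofilins and profilins, gave values from −0.01 to 0.08 on the log2 scale.

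Of 15 genes that cap, measure or nucleate filaments in the sarcomere, 9 had higher and 6 lower means (12 and 3 after median centring), none called. Fhod3, a formin that assembles thin filaments in heart muscle, was 5652 to 6785 in WT hearts and 7484 to 10252 in KO hearts, without overlap (log2 fold change 0.43, limma adjusted p = 0.404, and 0.110 in the trended fit). Nebl, nebulette of the Z disc, was 12081 to 13469 in WT hearts and 10761 to 11941 in KO hearts, also without overlap (log2 fold change −0.17, limma adjusted p = 0.594). Over all genes, 3.1% had 4 KO hearts above and 3.72% had 4 KO hearts below 4 WT hearts. Neb (−0.90) and Fhod1 (−0.89) had signals of at most 124 and 172 and overlapped. Of 6 measured subunits of the ARP2/3 complex, which starts branched filaments, 1 had a higher and 5 a lower mean, counts that were 5 and 1 after median centring. The centred counts of both lists stand beside 11624 of all 18193 genes with higher means. Arpc5 was 2231 to 3100 in WT hearts and 1675 to 2063 in KO hearts (log2 fold change −0.49, limma adjusted p = 0.395, and 0.0945 in the trended fit), and Actr3, Arpc1a and Arpc2 gave 0.15, −0.09 and −0.04.

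Folding and modification of actin were covered by 16 genes, of which 13 had higher and 3 lower means (median 0.08), none called, and the counts were the same after quantile normalization and 16 and 0 after median centring. Median centring gave 11624 higher and 6569 lower means over all 18193 genes, so part of that move is shared by all genes. Setd3, the methyltransferase that modifies a histidine of actin, was 1933 to 2144 in WT hearts and 2340 to 2674 in KO hearts, without overlap (log2 fold change 0.27, limma adjusted p = 0.449, and 0.179 in the trended fit). Cct3, a subunit of the chaperonin that folds actin and tubulin, was 7043 to 8840 in WT hearts and 9178 to 10176 in KO hearts, without overlap (log2 fold change 0.23, limma adjusted p = 0.547). The share of all genes with 4 KO hearts above 4 WT hearts was 3.1%. Pfdn2, of the prefoldin that hands actin to the chaperonin, gave 0.15 and Tcp1 0.10. Of 7 measured actin-related proteins, which share the actin fold, 4 had higher and 3 lower means (6 and 1 after median centring, 2 and 5 without KO replicate 4), none called, with Actr5 at −0.43, Actr8 at 0.09 and Actr6 at −0.07, and Actrt2 was near background.

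The genes whose signal varied most like each contrasted actin within a genotype were listed as a description, by Pearson's r over the 8 hearts with genotype means removed, among 9095 genes of above-median signal. For Actc1 they were Myh6 (0.99), Atp5k (0.99), Tpm1 (0.98), Atp5j2 (0.98) and Tnnt2 (0.98). For Acta2 they were Cdadc1 (0.98), Glud1 (0.98), Nup85 (0.97), Fgd1 (0.95) and Hic2 (0.94), and for Acta1 Phf11d (0.98), Trappc4, Ythdc1, Ruvbl1 and Selenok (0.97 each). The lists share no gene, and all values share the arrays and their scaling. Each list holds the highest of 9095 values over 8 hearts, so a high r follows in part from the choice, and no p was computed. Over the hearts as measured, r ran from −0.12 (Fgd1) to 0.90 (Glud1) for Acta2. It ran from 0.45 (Selenok) to 0.97 (Phf11d) for Acta1 and from 0.95 (Atp5j2) to 0.98 (Myh6) for Actc1.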

How the data were processed

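RNA of 8 hearts, 4 WT and 4 SRC-2 KO, was measured on single-colour arrays, grouped by the genotype in the labels. The deposited values are intensities on a linear scale for 45101 probesets, 64 of them controls, and each array has the same trimmed mean (2% trimmed at each end). Affymetrix Expression Console, Partek and RMA are named in the processing notes of the submitters, and these linear intensities are not log2 RMA values, so the authors' scaling of the table is known only from the values. They were converted to log2 as they stand, without a floor. Probesets were named by the platform annotation, 34945 with 1 symbol, 932 with several (not used) and 9160 not listed, and symbols were updated through RefSeq (GRCm38.p6), 18032 of 18193 genes matched. The fits ran in R 4.3.3 with limma 3.58.1 (lmFit and eBayes, two-sided, adjusted by Benjamini-Hochberg), and the code was tested on simulated data. Promoters and correlations were read in Python 3.11.15 (numpy 2.4.6, pandas 2.3.3, scipy 1.17.1) and figures drawn in matplotlib 3.10.9.

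The members and gene lists were chosen with earlier results of these data known. Genes named were Ncoa2, the 6 actins, up to 4 genes of each list by the smallest p, any list gene called in either fit and the 5 most like each contrasted actin, and others are named only as examples seen afterwards. List genes without a match were Rock2, Twf1, Xirp2, Actr2, Arpc1b, Arpc3, Naa80, Actr1b, Actr10 and Hbb-bs. Each array is 1 mouse, so p-values measure the spread between mice. Same-numbered arrays correlated at −0.08 to 0.12 in their deviations, so the numbers do not pair them. Alternatives were the trended fit, a random variance model test, a replicate block, median centring, quantile normalization, signals under 50 set to 50, a filter on genes with a mean signal under 50, averaging all probesets of a gene, dropping probesets with the suffix _x_at, and leaving out each array. No actin probeset has the suffix _x_at, so the shared probesets of Acta2 and Actg1 were kept throughout. The trended fit, planned as an alternative, was made a result of its own after the values were seen. Its alternatives and those of list counts were added then too.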

Additional observations from a re-analysis of the deposited data

How the results depend on the processing

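In the common-variance fit no actin gene was called under any alternative, and the trended fit called 1. The log2 fold changes of Acta2, Acta1 and Actg2 kept their sign after median centring, after quantile normalization and with each array left out. Acta2 kept it too as the mean of all probesets, whereas Acta1 and Actg2 have 1 probeset each. The other alternatives cannot change these fold changes. They alter only the test, dim signals or probesets with a suffix that no actin probeset has. Acta2 was 0.74 in the trended fit (called), and there it was not called after quantile normalization (0.61, adjusted p = 0.0929) or as the mean of all probesets (0.78, adjusted p = 0.264). Leaving out each array gave 0.66 to 0.86 for Acta2, −1.87 to −0.89 for Acta1, −0.76 to −0.32 for Actg2, 0.05 to 0.22 for Actc1, −0.075 to 0.098 for Actb and −0.26 to 0.072 for Actg1. Actc1 reversed to −0.048 and Actb to −0.11 after quantile normalization, and Actg1 to 0.069 after median centring, which moved the median of all genes from −0.03 to 0.13. Acta2 was then 0.89. Quantile normalization limits differences of the brightest genes, Actc1 among them, so the reversal of Actc1 says little. With the replicate block, no gene was called in the common-variance fit (0 higher, 0 lower) and Acta2 kept its call in the trended fit (adjusted p = 0.0318). The numbers do not pair the samples, so the block is no separate evidence.

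Over all genes, the common-variance fit called 1 higher and 3 lower genes. Higher genes numbered 22 in the trended fit and 0 with median centring, quantile normalization, the floor of 50, the filter on dim genes and the mean of all probesets, and lower genes numbered 47 in the trended fit and 1 with the mean of all probesets. Leaving out arrays gave 0 to 1 higher and 1 to 5 lower genes. In the trended fit, higher genes numbered 122 after median centring and 3 with the mean of all probesets, lower genes 30 after quantile normalization and 12 with the mean of all probesets, and leaving out arrays gave 2 to 104 higher and 3 to 218 lower genes, both highest without KO replicate 4.

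Of the differences within a heart, after quantile normalization Acta2 minus Actc1 was 0.66 and Acta2 minus Acta1 2.08 (exact permutation, adjusted p = 0.0429 for both). Leaving out arrays gave 0.46 to 0.73, 1.63 to 2.53 and, for Acta1 minus Actc1, −2.08 to −0.996. Both pairs with Acta1 had an adjusted p of 0.0429 by exact permutation without KO replicate 4, a heart whose removal fixes the separation of Acta1 minus Actc1. The causes were not tested. With 4 hearts a genotype, a difference of the size of the spread of Acta1 or Actg2 cannot be resolved, and the dim probeset of Acta2 sets no useful bound.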
